A study of Homo sapiens with 4 samples.

Results

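In 786-O cells with and without PRDM16, 10 genes of lipid droplets and lipase control were followed. By role, they coat or fuse droplets, build or break down triacylglycerol, restrain lipases or carry fatty acids. They were chosen by gene name from the 56753 loci of the expression table, and every one of the 10 was found there. The choice was made with the differences between these same libraries known, so the members' values are given as a description with no test. 786-O is an established human line from a clear cell renal cell carcinoma that lacks functional VHL. Stably transduced cells carried either PRDM16 lentivirus (2 libraries) or a control vector (2 libraries), and both were grown as adherent cultures under standard conditions. PRDM16 is a zinc finger regulator of transcription known from brown fat, and the study asked what its overexpression does to the transcriptome of these cells. Whether each line was 1 clone or a pool, and whether replicates were separate cultures, the labels do not say, so a p-value reflects the spread among 4 libraries alone, and that spread may be technical.

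A lipid droplet is a store of triacylglycerol and sterol esters under a single phospholipid layer, coated with perilipins. DGAT enzymes make the triacylglycerol, and the lipase ATGL, encoded by PNPLA2, starts its breakdown. ATGL is held back by the small inhibitors G0S2 and HILPDA and helped by ABHD5, while ANGPTL4 is secreted and blocks lipoprotein lipase outside the cell. Clear cell renal carcinoma takes its name from cells filled with such stores, and PLIN2 and HILPDA are known targets of hypoxia-inducible factors, which are active where VHL is lost.

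The promoters of 3 members are shown because their messages behaved differently: G0S2 and ANGPTL4 were higher in both PRDM16 libraries, and PLIN2 was level. Each is the 250 bases before the RefSeq start on GRCh38.p14, read 5′ to 3′ on the strand of the gene. Capitals mark ACGTG or GCGTG on either strand, the core of the hypoxia response element. The G0S2 window lies at chr1:209675162-209675411 on the plus strand, ANGPTL4 at chr19:8363905-8364154 on the plus strand and PLIN2 at chr9:19127493-19127742 on the minus strand. The ANGPTL4 and PLIN2 windows lie inside the gene spans given below, so other annotated starts of these genes are not covered. Which start was in use in these cells was not tested.
G0S2: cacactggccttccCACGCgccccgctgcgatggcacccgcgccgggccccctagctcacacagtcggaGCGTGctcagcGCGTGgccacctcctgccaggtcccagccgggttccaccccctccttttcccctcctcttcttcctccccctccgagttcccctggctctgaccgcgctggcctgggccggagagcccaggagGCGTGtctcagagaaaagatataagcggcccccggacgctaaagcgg
ANGPTL4: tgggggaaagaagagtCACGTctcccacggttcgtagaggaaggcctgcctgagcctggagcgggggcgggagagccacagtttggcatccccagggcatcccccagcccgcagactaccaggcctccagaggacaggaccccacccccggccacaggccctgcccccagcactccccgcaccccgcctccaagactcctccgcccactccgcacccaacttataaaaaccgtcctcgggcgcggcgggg
PLIN2: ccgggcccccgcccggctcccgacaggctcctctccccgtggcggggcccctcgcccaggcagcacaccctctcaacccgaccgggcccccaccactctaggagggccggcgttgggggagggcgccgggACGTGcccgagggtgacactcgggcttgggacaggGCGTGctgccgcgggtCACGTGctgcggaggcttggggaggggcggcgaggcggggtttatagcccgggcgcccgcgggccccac
The core matched 4 times before G0S2, each time as GCGTG, and 1 time before ANGPTL4. It matched 4 times before PLIN2, where 2 of the matches are the 2 strands of a single E-box, CACGTG. PLIN3, also level, had 3 matches, and the PNPLA2 and CIDEC windows had 0. Of 35116 RefSeq windows of the same length, 43.2% held at least 1 core and 7.76% held 3 or more. Core matches were present before G0S2 and ANGPTL4, which were higher, and before PLIN2 and PLIN3, which were level. Any part of these matches in the differences was not tested.

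Levels were read as FPKM, a fragment count corrected for transcript length and library size, so they can be set beside each other between genes. PRDM16 itself stood at 1226 and 1146 FPKM in PRDM16 libraries and at 0.0157 and 0.234 FPKM in control vector libraries. The renal transcription factor PAX8 was present in both groups, at 190.3 and 169 FPKM in PRDM16 and 202 and 208 FPKM in control vector libraries. Among 10 adipocyte markers, 5 were listed at 0 everywhere, LEP and ADRB3 included, and LIPE alone reached a mean of 1 FPKM. Of 8 macrophage markers in loci of their own, 3 were listed at 0 everywhere and CSF1R and MSR1 reached 1 FPKM. The other 2 of the 10 listed, CD68 and CD163, were seen only in loci shared with other genes. Those loci had means of 440 and 16.0 FPKM, which give no level for the markers themselves. Of 8 hepatocyte markers only SERPINA1 reached 1 FPKM. Control vector replicate 2 stood apart from the other 3 libraries. The 16 ATF4 and unfolded protein response genes summed to 1425 and 1006 FPKM in PRDM16, 1093 FPKM in control vector replicate 1 and 2286 FPKM in control vector replicate 2. For 16 cell cycle genes the sums were 1544, 1682, 1644 and 988 FPKM in the same order, and for 17 targets of hypoxia-inducible factors they were 1832, 1654, 1874 and 2648 FPKM. By direction, 15 of 15 tested ATF4 genes and 15 of 16 tested hypoxia targets had a lower mean with PRDM16, and 16 of 16 cell cycle genes a higher one. Over all 13246 tested loci, 6717 means were higher and 6529 lower. Both PRDM16 libraries lay below both control vector libraries at only 1 of the 15 ATF4 genes and 6 of the 16 hypoxia targets (20.3% of all loci). They lay above both at 2 of the 16 cell cycle genes (21.1% of all loci). The part of these 3 lists in the members' values was not tested.

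Within the set, the most abundant messages were G0S2 at a mean of 138 FPKM over the 4 libraries, PLIN3 at 129 FPKM and PLIN2 at 113 FPKM. The ranges of these neighbours overlapped, so their order is not settled. PNPLA2 followed at 80.5 FPKM, higher than 88.8% of the 13246 loci tested, and its range overlapped none of those 3. ANGPTL4 (13.0 FPKM) and FABP5 (7.46 FPKM) lay in the middle of the tested loci and overlapped each other. DGAT2 was low at 3.78 FPKM, and CIDEC was close to absent at 0.0508 FPKM. HILPDA and DGAT1 have no level of their own, since the table merges each with neighbours into a locus with 1 summed value, whose range bounds nothing for the gene itself.

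**Figure D1:**
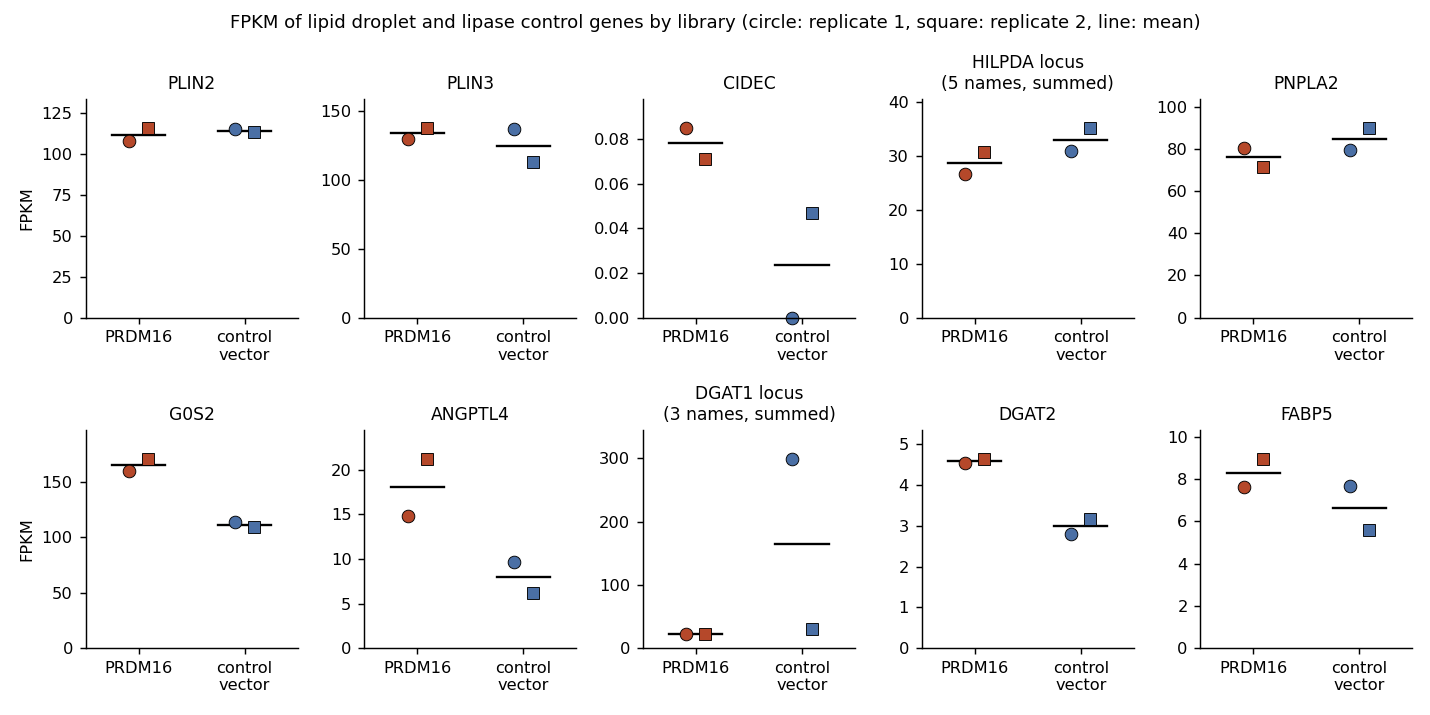
FPKM of each of the 10 genes (vertical axes, each from 0) in the PRDM16 libraries (left, red) and the control vector libraries (right, blue), with circles for replicate 1, squares for replicate 2 and a line at the group mean. G0S2, ANGPTL4 and DGAT2 are higher in both PRDM16 libraries, PLIN2 is level at 108 to 116 FPKM, and the DGAT1 locus has 1 control vector library at 299 FPKM.

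Of the 10 members, 9 passed the filter of a mean of at least 1 FPKM. At a limma adjusted p under 0.05, 3 of 13246 loci were called, or 0.0226%, and 0 members were among them. G0S2, ANGPTL4 and DGAT2, 3 of the 9, were higher in each PRDM16 library than in either control vector library, a pattern that 21.1% of all tested loci showed. The merged HILPDA and DGAT1 loci, 2 of the 9, were lower in each PRDM16 library, as were 20.3% of all tested loci. Leaving out control vector replicate 2 could not make these members overlap, and the shares of all loci then rose to 34.2% and 36.3%. The median log2 change was 0.11 over all 9 tested members, against 0.00399 over all tested loci. Over the 7 with a locus of their own, without the 2 merged loci that were lower, it was 0.29, the value of FABP5. These figures describe a choice made on the same contrast.

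The coat proteins showed little difference between groups. PLIN2, the main perilipin of cells other than adipocytes, was 108 and 116 FPKM in PRDM16 libraries and 115 and 113 FPKM in control vector libraries. The groups overlapped, and the means of 112 ± 5.84 FPKM in PRDM16 and 114 ± 1.31 FPKM in control vector libraries (SD, n = 2 each) differed by a log2 change of -0.03 (SE 0.09). Without PRDM16 replicate 1 the sign turned, to 0.02. The gene lies on chromosome 9 from 19108375 to 19149290 on the minus strand of hg38.

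PLIN3, a perilipin that moves from the cytosol onto young droplets, was 129.7 and 138 FPKM in PRDM16 libraries and 137 and 113 FPKM in control vector libraries. One control vector library, replicate 2, was below the other 3, which lay close together. The log2 change was 0.11 (SE 0.12), and it was -0.03 without that library. The ratio of PLIN2 to PLIN3 was 0.830 and 0.842 in PRDM16 and 0.842 and 1.01 in control vector libraries, again with control vector replicate 2 apart.

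CIDEC, which fuses droplets in fat cells, was listed at 0.0851 and 0.0712 FPKM in PRDM16 libraries and at 0 and 0.0469 FPKM in control vector libraries. These values are far under the filter, and no fold is given. Its pseudogene CIDECP, 93.7% identical over the best aligned stretch, was listed at 5.93 and 6.65 FPKM in PRDM16 and 6.26 and 8.93 FPKM in control vector libraries. Reads of such a pair can be split in counting, so the level of CIDEC is uncertain.

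The genes of lipase control include the lipase of droplets, its inhibitors and a secreted inhibitor of another lipase. PNPLA2, which encodes the lipase ATGL, was 80.7 and 71.5 FPKM in PRDM16 libraries and 79.7 and 90.1 FPKM in control vector libraries. The groups overlapped and the log2 change was -0.16 (SE 0.11). It lies on chromosome 11 from 818902 to 825573.

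G0S2, the inhibitor that binds ATGL, was 159.8 and 171 FPKM in PRDM16 libraries and 114 and 109 FPKM in control vector libraries. Both PRDM16 libraries were above both control vector libraries, and the gap between the groups was wider than the gap within either. The means were 165 ± 7.60 FPKM in PRDM16 and 111 ± 3.33 FPKM in control vector libraries (SD, n = 2 each), a 1.48-fold difference. The log2 change was 0.56 (SE 0.09) and stayed between 0.52 and 0.61 in every alternative tried, control vector replicate 2 left out included. G0S2 lies on chromosome 1 from 209675420 to 209676388.

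The ratio of inhibitor to lipase within a library does not depend on library scaling. G0S2 over PNPLA2 was 1.98 and 2.39 in PRDM16 libraries and 1.43 and 1.21 in control vector libraries. The inhibitor's message exceeded that of the lipase in all 4 libraries, and by more in both PRDM16 libraries. Mean ratios were 2.18 ± 0.286 in PRDM16 and 1.32 ± 0.153 in control vector (SD, n = 2 each).

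HILPDA, the hypoxia-induced inhibitor of the same lipase, shares its only locus with METTL2B and 3 clone-named genes. That locus was 26.6 and 30.7 FPKM in PRDM16 libraries and 30.9 and 35.2 FPKM in control vector libraries. The groups came close, with the highest PRDM16 library just under the lowest control vector library, and they overlapped once libraries were scaled to equal medians or by median of ratios. The log2 change was -0.20 (SE 0.12). Whether HILPDA or its neighbours account for it cannot be told apart. The HILPDA gene itself lies on chromosome 7 from 128455849 to 128458418.

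ANGPTL4, the secreted inhibitor of lipoprotein lipase, was 14.8 and 21.2 FPKM in PRDM16 libraries and 9.69 and 6.24 FPKM in control vector libraries. The groups did not overlap, although replicates of both groups differed widely. Its gap between PRDM16 replicates was wider than at 96.7% of tested loci, and that between control vector replicates wider than at 91.7%. The means were 18.0 ± 4.54 FPKM in PRDM16 and 7.96 ± 2.43 FPKM in control vector libraries (SD, n = 2 each), 2.26-fold apart. The log2 change of 1.09 (SE 0.26) was 0.81 when control vector replicate 2 was left out and 1.37 when replicate 1 was. ANGPTL4 lies on chromosome 19 from 8363289 to 8374373. The message of lipoprotein lipase itself was near absent: LPL was listed at 0.0767 and 0.0636 FPKM in PRDM16 and at 0 and 0.0252 FPKM in control vector libraries.

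**Figure D2:**
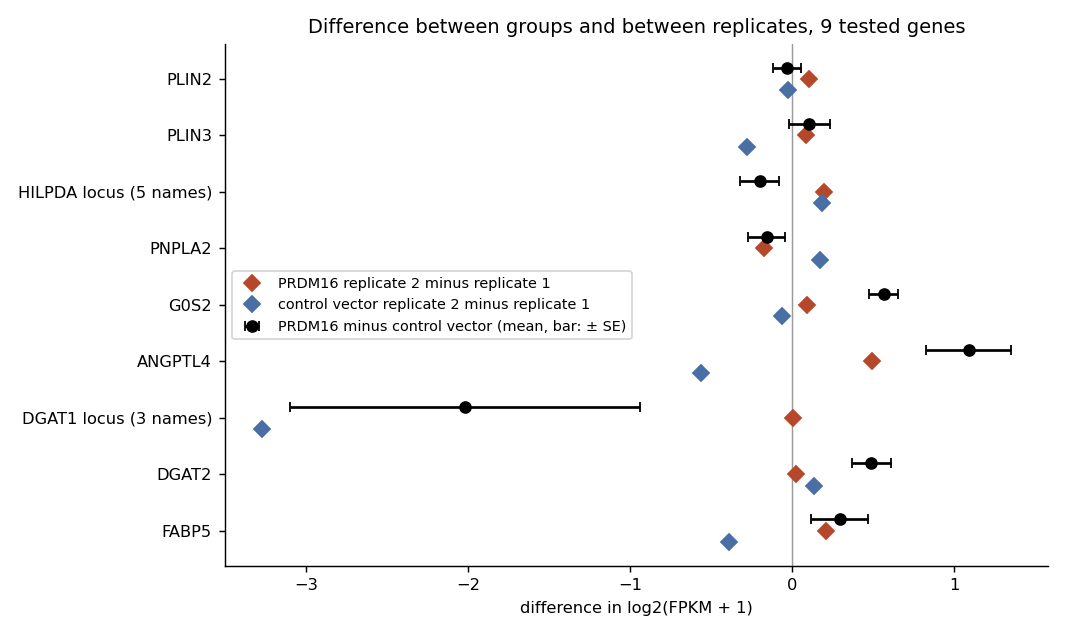
Differences in log2(FPKM + 1) for the 9 tested genes: black circles are PRDM16 minus control vector with bars of 1 SE, red diamonds PRDM16 replicate 2 minus replicate 1, and blue diamonds the same for control vector. For G0S2, DGAT2 and ANGPTL4 the difference between groups (0.56, 0.49 and 1.09) is wider than both gaps between replicates. At the HILPDA locus it is barely so (-0.201 against 0.198 and 0.182). For the DGAT1 locus the control vector replicates alone differ by -3.27.

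Triacylglycerol synthesis was represented by its final enzymes. DGAT2, which esterifies newly made diacylglycerol, was 4.53 and 4.63 FPKM in PRDM16 libraries and 2.79 and 3.17 FPKM in control vector libraries. Both PRDM16 libraries were higher, at a low level. The means of 4.58 ± 0.0712 FPKM in PRDM16 and 2.98 ± 0.268 FPKM in control vector libraries (SD, n = 2 each) were 1.54-fold apart. The log2 change was 0.49 (SE 0.12), 0.42 when control vector replicate 1 was left out and 0.56 when replicate 2 was. The gene lies on chromosome 11 from 75759512 to 75801535. Relative to PNPLA2, DGAT2 stood at 0.0561 and 0.0648 in PRDM16 and at 0.0350 and 0.0352 in control vector libraries.

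DGAT1, the other enzyme of this step, shares its only locus with a clone-named gene and the microRNA gene MIR6848. The locus was 22.7 and 22.8 FPKM in PRDM16 libraries and 299 and 30.0 FPKM in control vector libraries. Control vector replicate 1 was alone at its level, and the other 3 libraries lay close together. The log2 change of -2.02 (SE 1.08) was -0.38 without that library. It was -3.66 without control vector replicate 2, a setting in which limma called the locus with replicate 1 as its 1 control vector library. The loci nearest to it in pattern were AL031587.1, RNU6-577P and RNY4P37, each listed at 0 in every library except control vector replicate 1, where they had 22.2, 27.8 and 32.5 FPKM. They were the nearest of 8431 single-name loci with a mean of at least 5 FPKM, at root mean square distances of 0.46, 0.59 and 0.68 on the log2 scale over 4 libraries.

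The same measure was applied to ANGPTL4, the member with the widest difference in a locus of its own, a choice made after its values were seen. Its nearest loci were RPL7, a ribosomal protein gene, ESCO2, a cohesin acetyltransferase gene, and LINC00704, at distances of 0.21, 0.24 and 0.24. RPL7 was 103 and 124 FPKM in PRDM16 and 59.1 and 57.1 FPKM in control vector libraries. ESCO2 and LINC00704 resembled ANGPTL4 mainly in being lowest in control vector replicate 2. With only 4 libraries such likeness carries little weight.

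FABP5, a carrier of fatty acids in the cytosol, was 7.61 and 8.96 FPKM in PRDM16 libraries and 7.66 and 5.60 FPKM in control vector libraries. The groups overlapped, with control vector replicate 2 lowest, and the log2 change was 0.29 (SE 0.17), or 0.10 without that library. A larger value stood in the table under another name. FABP5P7, a processed pseudogene on chromosome 11 from 59781318 to 59781722, was listed at 98.3 and 105 FPKM in PRDM16 and at 92.3 and 63.9 FPKM in control vector libraries. Its 405 bases were identical to the FABP5 transcript at 405 of 405 positions, so short reads inside that stretch cannot be told apart. FABP5 made up 7.18% and 7.88% of the pair's summed FPKM in PRDM16 and 7.66% and 8.05% in control vector libraries, a near constant share. The sum was 106 and 114 FPKM in PRDM16 and 99.97 and 69.5 FPKM in control vector libraries, with control vector replicate 2 lowest again. It is not a level of FABP5, since the loci are scaled by different lengths, and how reads that match both were counted is not known here. Of 13 FABP5 pseudogenes in the table, FABP5P7 was the 1 that reached 0.5 FPKM in any library.

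**Figure D3:**
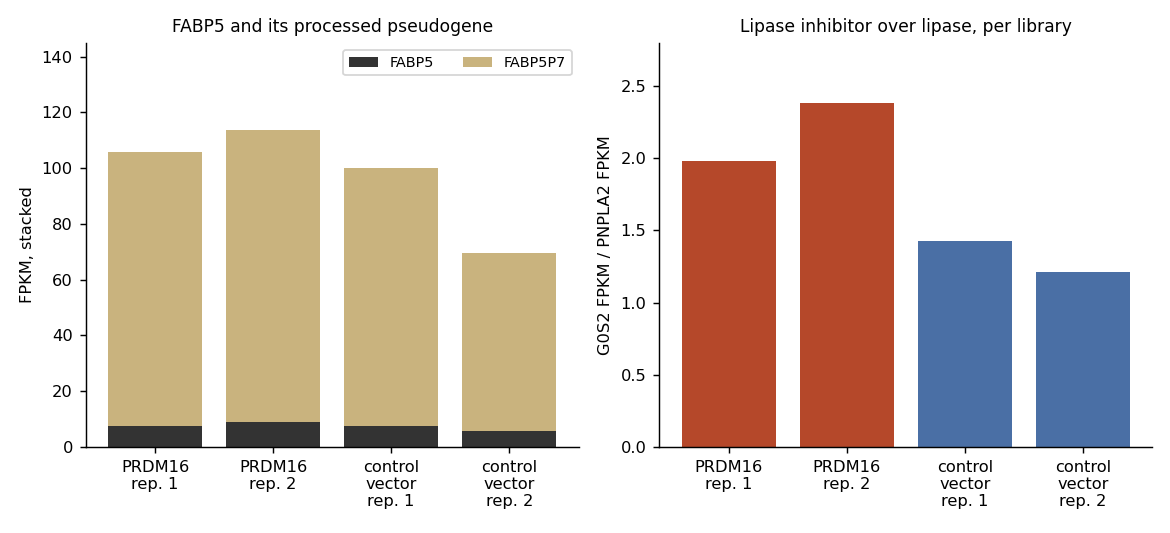
Left, FPKM of FABP5 (dark) and FABP5P7 (light), stacked, in each library; right, the ratio of G0S2 FPKM to PNPLA2 FPKM in each library, PRDM16 in red and control vector in blue. FABP5 is at most 8.05% of the pair in any library, and the G0S2 ratio is 1.98 and 2.39 in PRDM16 against 1.43 and 1.21 in control vector libraries.

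The rest of the pathway was read from 6 lists with 115 genes, of which 64 were tested in a locus of their own. None passed the limma test at an adjusted p under 0.05. An unadjusted limma p under 0.05 was found for 7 of the 64, a larger share than the 811 of all 13246 tested loci. Each PRDM16 library was above both control vector libraries at 17 of the 64 and below them at 21 of the 64. Over all 13246 tested loci the counts were 2797 and 2693, or 21.1% and 20.3%, so both shares were larger in the lists. The lists were chosen with earlier results of these data known, so the larger shares are a description and no test of the lists. The median log2 change of the 64 genes was -0.04. The lowest limma adjusted p among them was 0.689.

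Droplet coat and assembly genes (17 listed, 7 tested) had a median log2 change of -0.08, with 3 higher and 4 lower means. The adipocyte perilipins were near absent: PLIN1 was listed at 0.0408 and 0.0262 FPKM in PRDM16 and 0.110 and 0.0771 FPKM in control vector libraries, and PLIN4 was at most 0.0632 FPKM. PLIN5 was seen only in a shared locus with at most 0.181 FPKM, CIDEA was listed at 0 in all libraries and CIDEB reached at most 0.360 FPKM. PLIN2 and PLIN3 were thus the 2 perilipins above 1 FPKM. ANXA2, a membrane-binding annexin, was 380.0 and 387 FPKM in PRDM16 and 367 and 328 FPKM in control vector libraries. LDAF1, a partner of seipin listed under its older symbol, was 34.2 and 30.7 FPKM in PRDM16 and 31.4 and 46.9 FPKM in control vector libraries.

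Lipases and their regulators (22 listed, 14 tested) split evenly, 7 higher and 7 lower, at a median log2 change of 0.01. ABHD5, the activator of ATGL, was 24.3 and 23.5 FPKM in PRDM16 and 23.5 and 20.9 FPKM in control vector libraries, a log2 change of 0.11 (SE 0.10). The next enzymes of the breakdown were LIPE, at 1.16 and 1.51 FPKM in PRDM16 and 1.21 and 1.04 FPKM in control vector libraries, and MGLL, at 188 and 168 FPKM in PRDM16 and 187 and 189.9 FPKM in control vector libraries. MFSD2A, a lysophospholipid transporter placed in this list, was 8.64 and 9.55 FPKM in PRDM16 and 6.36 and 5.34 FPKM in control vector libraries, a log2 change of 0.56 (limma adjusted p = 0.689). PNPLA4, a relative of ATGL, was 13.3 and 13.1 FPKM in PRDM16 and 16.0 and 17.4 FPKM in control vector libraries, with the same adjusted p.

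Other enzymes of triacylglycerol and sterol ester synthesis (24 listed, 15 tested) had a median log2 change of -0.02, with 7 higher and 8 lower means. GPAT3, which adds the first acyl chain to glycerol phosphate, was 16.5 and 18.4 FPKM in PRDM16 and 14.3 and 13.3 FPKM in control vector libraries. LPIN3, a phosphatidate phosphatase, was 6.97 and 6.76 FPKM in PRDM16 and 8.16 and 9.83 FPKM in control vector libraries. SOAT1, which makes cholesterol esters, was 54.5 and 52.9 FPKM in PRDM16 and 49.8 and 48.9 FPKM in control vector libraries. ACSL3, an acyl-CoA synthetase on droplets, was 71.5 and 67.2 FPKM in PRDM16 and 76.3 and 85.7 FPKM in control vector libraries. None of these 4 passed the test.

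Uptake and binding genes (22 listed, 10 tested) had 3 higher and 7 lower means and a median log2 change of -0.06. The lipoprotein receptor VLDLR was 23.9 and 21.4 FPKM in PRDM16 and 26.0 and 28.9 FPKM in control vector libraries, and LRP1, of the same family, 5.34 and 6.16 FPKM in PRDM16 and 7.39 and 9.69 FPKM in control vector libraries. CD36 was at most 0.122 FPKM and FABP4 at most 0.150 FPKM in any library.

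ANGPTL4, PLIN2, G0S2 and CIDEC are known PPAR targets, so receptors and other targets were listed too. Receptors and coregulators (10 listed, 8 tested) had 1 higher and 7 lower means and a median log2 change of -0.09. PPARG was 32.1 and 29.1 FPKM in PRDM16 and 27.3 and 37.5 FPKM in control vector libraries. PPARD was 16.5 and 15.9 FPKM in PRDM16 and 13.8 and 17.3 FPKM in control vector libraries, and PPARA 8.69 and 7.47 FPKM in PRDM16 and 8.54 and 12.6 FPKM in control vector libraries. All 3 receptors overlapped between groups. The coactivators NCOA1 and NCOA2 were lower in both PRDM16 libraries, NCOA1 at 3.92 and 3.75 FPKM in PRDM16 and 5.15 and 4.95 FPKM in control vector libraries, with log2 changes of -0.32 and -0.27 (limma adjusted p = 0.689 for both).

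Other PPAR targets (20 listed, 10 tested) had 5 higher and 5 lower means and a median log2 change of -0.000757. CPT1A, which admits fatty acids to mitochondria, was 1.94 and 1.96 FPKM in PRDM16 and 1.33 and 1.44 FPKM in control vector libraries. IMPA2, an inositol monophosphatase, was 16.5 and 18.4 FPKM in PRDM16 and 25.7 and 25.01 FPKM in control vector libraries, a log2 change of -0.52 that did not pass (limma adjusted p = 0.689).

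**Figure D4:**
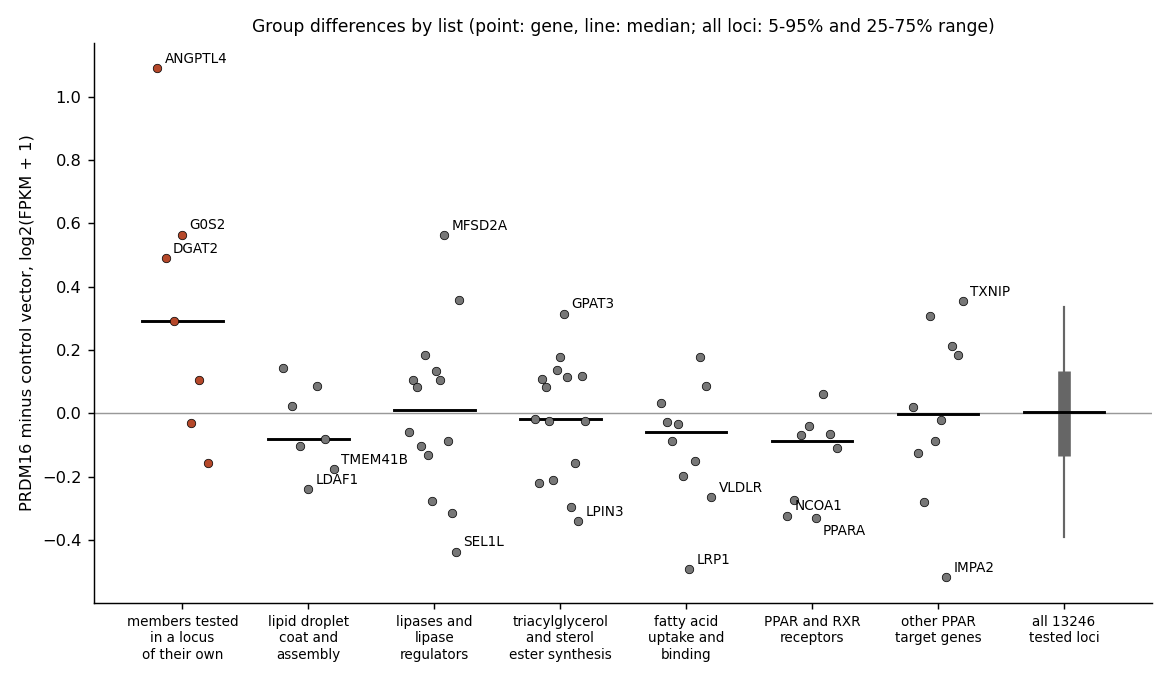
PRDM16 minus control vector difference in log2(FPKM + 1) for members in a locus of their own (red) and for the tested genes of 6 lists (grey), with a line at each median; at the right, the 5th to 95th percentile (thin, -0.39 to 0.34) and the quartiles (thick, -0.13 to 0.13) of all 13246 tested loci. ANGPTL4, G0S2 and DGAT2 lie above the 95th percentile, and the medians of the 6 lists run from -0.09 to 0.01. The members were chosen with these differences known, so their place among all loci is a description only. The merged HILPDA and DGAT1 loci, both lower with PRDM16, are not shown.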

How the data were processed

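RNA-seq was done on total RNA from 4 libraries of 786-O cells. The submitters' processing notes name Cufflinks 2.2.1 and Cuffdiff, TopHat2 2.1.0, Trim Galore and the hg38 build. The sources used here do not give the annotation, the filters, the library scaling or the strand setting. The values the authors deposited were taken as FPKM, a unit read from the tools and the values (not whole, 556213 to 574003 per library). Read numbers are unknown, so no counting interval is given. From the steps of the lowest values, relative depth was 1.25 and 1.16 in PRDM16 and 1 and 1.39 in control vector libraries. A listed 0 may be a failed estimate. Of 56753 loci, 2365 carry several names and give 1 summed value.

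The 13246 loci with a mean of at least 1 FPKM were fitted in R 4.3.3 with limma 3.58.1 on log2(FPKM + 1), with a variance trend, a two-sided test and Benjamini-Hochberg adjustment over all of them. This scale understates changes of low genes. The fit was also run on simulated data with known changes, and how many of them it recovered is not reported here. A two-sided exact permutation test of 2 against 2 libraries cannot go below p = 0.333. Members and lists were chosen with earlier results of these data known. Named were all members, 17 preset lipid genes and the 2 genes with the smallest p of each lipid list. Genes absent by symbol were sought by older symbols. Coordinates are from GENCODE release 29 on GRCh38, which may differ from the authors' annotation, and promoters from RefSeq on GRCh38.p14, with 6 of 10 members matched. Sequences were aligned with Biopython 1.88 and plots made with matplotlib 3.10.9.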

Additional observations from a re-analysis of the deposited data

How the results depend on the processing

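The settings varied were the pseudocount (0.1 or 0.5), the filter (none, or a mean of 5 FPKM), the scaling (3 others), the variance model, a block for the replicate number, and each library in turn. G0S2, ANGPTL4 and DGAT2 lay higher in both PRDM16 libraries under each of the 3 other scalings. The remaining settings could not undo this, since they keep the order of the libraries or only remove a library or locus. DGAT2 fell under the filter at 5 FPKM. Members lying higher numbered 3. There were 4 without a filter (CIDEC added) and 4 after quantile normalization (FABP5 added), 2 with the filter at 5 FPKM, and from 3 to 6 with 1 library left out. Members lying lower numbered 2, 1 after scaling to equal medians or by median of ratios, where the HILPDA locus overlapped, and from 2 to 3 with 1 library left out. Of all tested loci, 21.1% lay higher and 20.3% lower in the main fit. These shares were 15.7% and 17.7% without a filter, 21.5% and 19.5% after quantile normalization, and 23.5% and 18.6% with the filter at 5 FPKM. Scaling to equal medians gave 20.5% and 20.7%, and median of ratios 21% and 20.7%. With 1 library left out the shares rose to between 30% and 43.9% higher and between 27.8% and 40.8% lower. With 1 library left out, the log2 change of PLIN2 ran from -0.083 to 0.022 (without PRDM16 replicate 1) and that of PLIN3 from -0.032 (without control vector replicate 2) to 0.245; the cause was not tested. DGAT2 had a log2 change of 0.61 with a pseudocount of 0.1. Called loci numbered 3. A pseudocount of 0.1 gave 5, robust variances also 5, no variance trend 6, no filter 1, a threshold of 0.01 gave 1, and leaving out 1 library gave from 17 to 37. With the replicate block 5 loci were called and no member; replicate numbers share only a number here (correlation of replicate differences across loci -0.06). No gene of the 6 lists was called in any alternative. PRDM16 was called in all. Read depth is unknown, and CIDEC, LPL and CD36 lie where no difference could be read.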
